A study of Homo sapiens with 18 samples.

Results

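The 10 genes described here, SLC2A1, HK1, HK2, PFKP, PFKFB3, PGK1, ENO1, PKM, LDHA and SLC16A3, carry glucose from uptake to lactate export. They were taken by gene name from the authors' deposited tables, where all 10 were found among 15747 genes measured in cell fractions and 44682 genes measured in whole cells. RNA came from DU145, an androgen receptor-negative line derived from a metastatic prostate carcinoma. The RNA sources were whole cells, cytoplasmic lysates after spins meant to remove nuclei and mitochondria, and heavy polysomes, the gradient fractions in which mRNAs carry many ribosomes. In each source, cells given 40 µM GC7 for 24 h were compared with cells given vehicle only, with 3 libraries in each of 6 groups. GC7 inhibits deoxyhypusine synthase, the enzyme that starts the hypusine modification of the translation factor eIF5A. All groups come from 1 cell line, and the fractionated cells of both treatments received emetine, which arrests ribosomes on mRNA, before lysis. The epithelial markers KRT8, KRT18, KRT19, EPCAM and CDH1 were all measured in the fractions, with cytoplasmic mean normalized counts between 337 for CDH1 and 41006 for KRT18 in the authors' deposited table.

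Glycolysis splits glucose into pyruvate in the cytosol and yields ATP without oxygen. When pyruvate is not oxidised in mitochondria, lactate dehydrogenase reduces it to lactate and regenerates NAD, and monocarboxylate transporters carry the lactate out of the cell. Cells whose respiratory chain is blocked commonly take up more glucose and release more lactate, and many carcinoma lines run this route at a high rate even with oxygen. The question put to these genes was whether their mRNAs stood higher with GC7 where mitochondrially encoded mRNAs stood lower. Mitochondrial genes took 0.685% of the summed counts on polysomes and 11.9% in cytoplasm. These counts average GC7 and vehicle libraries, so the shares are those of neither treatment alone. How fully the spins removed mitochondrial RNA was not tested. By the authors' deposited table MT-ND4 had a cytoplasmic mean normalized count of 592196 and GAPDH, the glycolytic dehydrogenase, one of 186524. At an adjusted p under 0.05, 12 of the 13 mitochondrially encoded mRNAs were called lower in polysomes and 12 in cytoplasm. Of all genes, 5.48% and 1.95% were called lower there. In whole cells 0 of the 13 and 0% of all genes were called. All 13 were lower in whole cells at an unadjusted p under 0.05, which 5.01% of genes with reads reached. The median log2 fold changes of the 13 in the authors' deposited tables were -4.20 in polysomes, -3.64 in cytoplasm and -2.14 in whole cells. The polysomal value is not read here as a change in ribosome loading.

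The tables give comparisons and no value per library, so neither depth nor a standard deviation between replicates can be stated. The labels do not say whether replicates were separate cultures, so p-values reflect variation among the libraries at hand, part of which may be technical. Neither table names its numerator. The authors' category of higher genes was read as higher with GC7. Whole-cell values ran opposite to the fractions as deposited (Spearman's rho of -0.371 with polysomes and -0.289 with cytoplasm across 14116 genes, which are not independent replicates), and their sign was therefore reversed. Agreement in sign between whole cells and fractions follows in part from this choice. On the opposite reading every direction given here turns round, including those of the mitochondrially encoded mRNAs above. A fold change is GC7 over vehicle throughout. The fold changes of the fractions were deposited after shrinkage towards 0, so the value before shrinkage is named as unshrunken where it is given.

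With GC7, 2 of the 10 mRNAs rose on heavy polysomes, 1 fell in cytoplasm, and none passed in whole cells. The pair that rose, SLC2A1 and HK2, serve the entry of glucose and its phosphorylation. The mRNA that fell, LDHA, serves the last enzymatic step before lactate leaves the cell. The other 7 members, HK1, PFKP, PFKFB3, PGK1, ENO1, PKM and SLC16A3, passed no test in any of the 3 RNA sources. An adjusted p under 0.05 was reached by 11.1% of all genes in polysomes (5.61% higher and 5.48% lower) and by 4.24% in cytoplasm (2.29% higher and 1.95% lower). With 10 members, these shares amount to about 1 call in polysomes and fewer in cytoplasm, and the members' counts stand near them. None of the 10 met the authors' own category, which also asks for a log2 fold change beyond 1 in size.

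The 250 bases before the start of the 3 called genes are shown because SLC2A1 and HK2 rose on polysomes while LDHA fell in cytoplasm. The sequences are from RefSeq, build GRCh38.p14, read 5′ to 3′ on the gene's strand, at chr1:42958869-42959118 (minus strand), chr2:74833877-74834126 (plus strand) and chr11:18394313-18394562 (plus strand). Capitals mark matches to ACGTG on either strand, the core of the hypoxia response element. They include CACGTG, the E-box read by MYC and related factors, which holds ACGTG on both strands.
SLC2A1: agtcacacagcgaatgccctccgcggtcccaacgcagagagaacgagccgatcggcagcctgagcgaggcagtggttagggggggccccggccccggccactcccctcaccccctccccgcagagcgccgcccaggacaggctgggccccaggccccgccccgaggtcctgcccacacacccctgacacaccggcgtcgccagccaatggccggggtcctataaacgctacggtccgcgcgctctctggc
HK2: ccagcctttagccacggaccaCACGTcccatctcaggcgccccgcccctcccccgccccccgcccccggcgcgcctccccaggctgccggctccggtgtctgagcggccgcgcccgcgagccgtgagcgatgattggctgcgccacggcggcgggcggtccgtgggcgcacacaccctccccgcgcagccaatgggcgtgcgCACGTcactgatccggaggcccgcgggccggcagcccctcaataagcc
LDHA: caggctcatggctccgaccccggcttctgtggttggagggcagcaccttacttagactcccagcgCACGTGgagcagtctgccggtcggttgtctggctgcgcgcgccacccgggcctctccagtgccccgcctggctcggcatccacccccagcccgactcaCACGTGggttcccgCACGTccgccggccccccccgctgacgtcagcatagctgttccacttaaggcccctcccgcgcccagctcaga
The LDHA window held 3 separate stretches with a match, of which 2 were the full CACGTG, and the HK2 window held 2 with none of that form. The SLC2A1 window held no match to these letters. Matches to ACGTG were found in 5 of the 8 members whose RefSeq start is that of the canonical transcript, and in 18.5% of all 35116 promoter windows of this length. CACGTG was found in 2 of the 8 and in 6.34% of all windows. The element TGATGNAA, to which ATF4 binds with a C/EBP partner, was searched on both strands and found in 0 of the 8, and in 3.14% of all windows. The windows of the 8 ran from 68.4% G and C for PKM to 83.2% for SLC16A3. The windows of all promoters were not matched for this content, so these shares do not measure an enrichment. A match describes these letters only and is no measured binding site.

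SLC2A1 encodes GLUT1, the glucose transporter of the plasma membrane in most cultured cells. It lies on chromosome 1 from 42925353 to 42958893 (GRCh38, minus strand). In the authors' deposited table its log2 fold change was 0.58 (SE 0.24, adjusted p = 0.0182) on polysomes, and the unshrunken value was 0.72 (SE 0.23). The unshrunken value is a 1.65-fold higher level with GC7, with a 95% interval of 1.22 to 2.24. For cytoplasm the authors' deposited table gives SLC2A1 0.32 (SE 0.17, adjusted p = 0.155), which did not pass. The whole-cell value, from the authors' deposited table after turning its sign, was -0.27 (unadjusted p = 0.724), opposite in sign and far less precise.

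HK2 encodes hexokinase 2, the inducible hexokinase that docks on the outer mitochondrial membrane and traps glucose as its phosphate. It lies on chromosome 2 from 74834127 to 74893359 (GRCh38, plus strand). On polysomes the authors' deposited table gives HK2 a log2 fold change of 0.54 (SE 0.23, adjusted p = 0.0207), and the unshrunken value was 0.67 (SE 0.21). The unshrunken value is 1.59-fold, with a 95% interval of 1.19 to 2.13. For cytoplasm the authors' deposited table gives HK2 0.42 (SE 0.21, adjusted p = 0.0987), of the same sign but above the threshold. HK2 was also positive in whole cells, where the authors' deposited table gives 0.52 (unadjusted p = 0.543). HK1, the constitutive hexokinase (chr10:69269984-69401884), has 0.12 (adjusted p = 0.578) on polysomes and -0.03 (adjusted p = 0.926) in cytoplasm according to the authors' deposited table. The unshrunken 95% interval of HK1 ran from 0.886-fold to 1.53-fold on polysomes and from 0.766-fold to 1.22-fold in cytoplasm.

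Neither PFKP, of the phosphofructokinase step that commits sugar to glycolysis, nor PFKFB3, which regulates that step, was called. For PFKP, the platelet-type phosphofructokinase (chr10:3066333-3137718), the authors' deposited table gives 0.14 (adjusted p = 0.520) on polysomes and 0.04 (adjusted p = 0.891) in cytoplasm. PFKFB3 (chr10:6144934-6254644) makes the sugar bisphosphate that activates phosphofructokinase. The authors' deposited table gives PFKFB3 -0.25 (SE 0.16, unadjusted p = 0.0354, adjusted p = 0.179) on polysomes and 0.01 (adjusted p = 0.976) in cytoplasm. It thus reached an unadjusted p under 0.05 on polysomes in the lower direction, which 23.3% of all genes did in either direction.

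In the payoff phase, where ATP and pyruvate are made, none of PGK1, ENO1 and PKM passed. For PGK1, phosphoglycerate kinase (chrX:77910739-78129295), the authors' deposited table gives 0.01 (adjusted p = 0.947) on polysomes and 0.19 (adjusted p = 0.443) in cytoplasm. It was the least precisely measured member on polysomes, with an unshrunken SE of 0.44 and a 95% interval from 0.582-fold to 1.93-fold. For ENO1, enolase 1 (chr1:8861000-8879190), the authors' deposited table gives 0.12 (adjusted p = 0.583) on polysomes and -0.04 (adjusted p = 0.894) in cytoplasm. For PKM, pyruvate kinase (chr15:72199029-72231819), the authors' deposited table gives 0.00 (adjusted p = 0.996) on polysomes and -0.41 (SE 0.25, unadjusted p = 0.0104, adjusted p = 0.139) in cytoplasm. Its spliced forms M1 and M2 are summed in 1 value and cannot be separated here.

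LDHA, the lactate dehydrogenase subunit that favours lactate formation, lies on chromosome 11 from 18394560 to 18408425 (GRCh38, plus strand). In cytoplasm it fell, and the authors' deposited table gives a log2 fold change of -0.48 (SE 0.17, adjusted p = 0.0159), which was -0.56 (SE 0.16) unshrunken. The unshrunken value is 0.679-fold of the vehicle level, with a 95% interval of 0.547 to 0.843. On polysomes the authors' deposited table gives LDHA -0.28 (SE 0.23, unadjusted p = 0.0474, adjusted p = 0.215), which did not pass. LDHA was the 1 member of negative sign in all 3 comparisons, and its whole-cell value from the authors' deposited table was -0.62 (unadjusted p = 0.517). HK2 and PFKP were the 2 members of positive sign in all 3. SLC16A3 (chr17:82217934-82261129) encodes MCT4, the lactate exporter of highly glycolytic cells, whose protein needs the chaperone basigin at the membrane. The authors' deposited table gives SLC16A3 -0.02 (adjusted p = 0.935) on polysomes and -0.20 (adjusted p = 0.446) in cytoplasm, so the exporter showed no call.

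**Figure D1:**
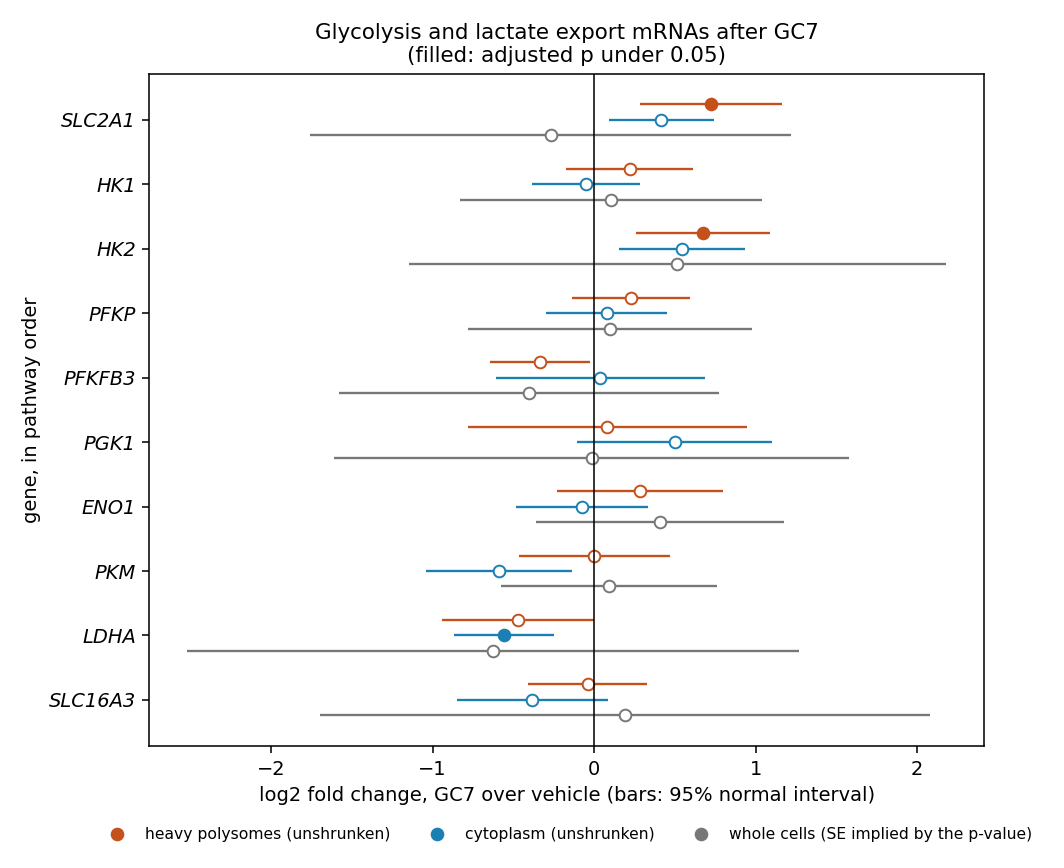
Log2 fold change of GC7 over vehicle (x axis) for the 10 genes in pathway order (y axis), in heavy polysomes, cytoplasm and whole cells, with 95% normal intervals as bars and filled points at an adjusted p under 0.05. SLC2A1 and HK2 are filled on polysomes at 0.72 and 0.67, LDHA is filled in cytoplasm at -0.56, and the whole-cell intervals are the widest for every gene.

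Across the 10 members, 7 were positive on polysomes and 5 in cytoplasm, where 48.5% and 48.7% of all genes were positive. Their median log2 fold change from the authors' deposited table was 0.07 on polysomes and -0.01 in cytoplasm, beside medians of all genes of -0.005 and -0.004. Unadjusted p-values under 0.05 were held by 4 members in each fraction. SLC2A1, HK2 and LDHA were among the 4 in both, joined by PFKFB3 on polysomes and by PKM in cytoplasm. The share of all genes at that threshold was 23.3% on polysomes and 15.4% in cytoplasm. The unshrunken 95% interval lay wholly between 0.5-fold and 2-fold for 8 of 10 members in each fraction. The exceptions were SLC2A1 and HK2 on polysomes, whose upper bounds passed 2-fold, and in cytoplasm PGK1, with an upper bound of 2.15-fold, and PKM, with a lower bound of 0.486-fold.

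In whole cells no member passed. With the deposited p-values adjusted by Benjamini-Hochberg across all 44682 genes, 0 members and 0% of genes were called. At an unadjusted p under 0.05 there were again 0 members, against 5.01% of the 26660 genes with reads and 3.23% of the 13998 of them that were also measured in the fractions. No other tool could be run on this table. Signs were mixed, with 6 members positive, beside 47.2% of those 13998 genes. By the authors' deposited table the members' median was 0.10, and they ran from -0.62 for LDHA to 0.52 for HK2. The standard error implied by value and p-value was 0.34 to 0.97 among members, while unshrunken values were 0.16 to 0.44 on polysomes and 0.16 to 0.33 in cytoplasm. The implied 95% interval stayed between 0.5-fold and 2-fold for 2 of the 10, PFKP and PKM, so that changes of the size seen in the fractions were not detectable in whole cells.

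The next comparison asked whether a member changed unequally on polysomes and in cytoplasm, which would be a change in ribosome loading beyond that in mRNA level. No member passed a normal test on the difference of unshrunken log2 fold changes. After Benjamini-Hochberg adjustment 0 of 10 members and 0% of 15744 genes were called, and at an unadjusted p under 0.05 there were 0 members and 2.15% of all genes. The difference was positive for 8 of 10 members, where 51% of all genes were positive, with a median of 0.21 among members and 0.01 among all genes. PKM had the largest difference among the members, 0.59 (SE 0.33), with a 95% interval from -0.06 to 1.24. For LDHA it was 0.09 (SE 0.29), for HK2 0.13 (SE 0.29) and for SLC2A1 0.31 (SE 0.28), so that for these 3 a call in 1 fraction and not in the other is no measured difference between fractions. PFKFB3 and PGK1 were the 2 with a negative difference, -0.37 (SE 0.37) and -0.42 (SE 0.54). All intervals of the members held 0. The errors of both fractions were taken as independent. The 2.15% of genes with an unadjusted p under 0.05 is less than that threshold, so the test may be too strict. In data simulated over 15747 genes with independent errors, 28% of genes with a log2 difference of 1 were called, and 80% of those with 2. These rates average over genes of unlike precision and are not those of the members. The lack of calls therefore does not show equal ribosome loading. What differences remain possible is given by each member's 95% interval, as from -0.44 to 0.70 for HK2 and from -1.47 to 0.64 for PGK1.

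The levels of the members, as mean normalized counts over GC7 and vehicle libraries divided by the length of the canonical transcript, spanned over 2 orders of magnitude. On polysomes ENO1 was highest at 34341 per kb, followed by PKM at 17441, LDHA at 9512, SLC16A3 at 3708 and PFKP at 2807. PGK1 followed at 1144, SLC2A1 at 910, PFKFB3 at 644, HK1 at 621 and HK2 at 65.8 per kb. In cytoplasm the first 5 kept their order, with ENO1 at 30828 and PKM at 25114 per kb, and HK2 was again lowest at 78.4. HK2 was thus the least abundant member and stood below HK1, at 589 per kb in cytoplasm. The table holds no spread for these levels, so whether close neighbours such as PFKFB3 and HK1 on polysomes, or SLC2A1 at 755 and PGK1 at 742 per kb in cytoplasm, differ cannot be said.

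PFKFB3 stood apart in how its level split between the fractions. By the authors' deposited table its mean normalized count was 2885 on polysomes and 894 in cytoplasm, a ratio of 3.23 that was higher than in 98.6% of genes. PKM lay at the other end, with 40201 on polysomes and 57887 in cytoplasm by the authors' deposited table, a ratio of 0.694 at the 4.01 percentile. HK2 had a ratio of 0.839, at the 8.98 percentile. The median ratio of all genes was 1.42, and 8 of 10 members lay below it, with PGK1 at 1.54 the other exception. Whether both fractions were normalized together is not given in the sources used here. The summed counts of the fractions also differ in their mitochondrial share, as given above, so these ratios are read only against those of other genes.

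**Figure D2:**
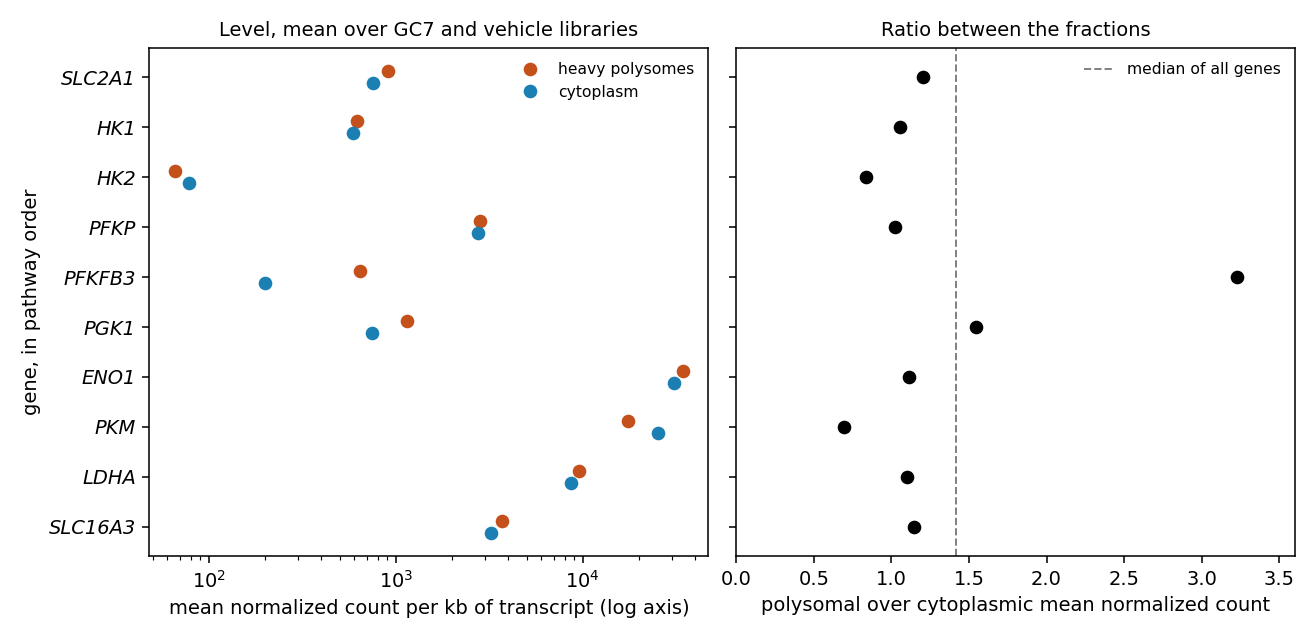
Left, mean normalized count per kb of transcript on a log axis for the 10 genes in heavy polysomes and cytoplasm; right, the polysomal over cytoplasmic ratio of mean normalized counts, with the median of all genes, 1.42, as a dashed line. ENO1 and PKM are highest and HK2 lowest in both fractions, and PFKFB3 lies far to the right at 3.23.

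The other enzymes of the pathway and their isoforms held no call in the higher direction. Of 31 genes listed, 23 were measured in the fractions, and on polysomes 0 were called higher and 2 lower, PGAM1 and PFKFB4. On polysomes 5.61% of all genes were called higher and 5.48% lower, so these counts stand near the background. For PGAM1, phosphoglycerate mutase, the authors' deposited table gives -0.50 (SE 0.13, adjusted p = 0.000479) on polysomes and -0.06 (adjusted p = 0.816) in cytoplasm. For PFKFB4, a relative of PFKFB3 with the same pair of activities, the authors' deposited table gives -0.66 (SE 0.19, adjusted p = 0.00169) on polysomes and -0.27 (adjusted p = 0.323) in cytoplasm. Unshrunken polysomal minus cytoplasmic differences were -0.40 (SE 0.27) for PGAM1 and -0.11 (SE 0.38) for PFKFB4. Neither fall was thus measured as particular to polysomes. In cytoplasm 0 of 23 passed the authors' adjusted p, with 5 at an unadjusted p under 0.05. The shares of all genes there were 4.24% and 15.4%. PFKFB4 was also the 1 gene of the list with an unadjusted p under 0.05 in whole cells, where the authors' deposited table gives -0.98 (unadjusted p = 0.0188). By the authors' deposited tables the list's medians were -0.07 on polysomes, -0.06 in cytoplasm and -0.13 in whole cells.

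Of 20 measured genes that decide the fate of pyruvate and lactate, 5 were called higher and 2 lower on polysomes, where 5.61% and 5.48% of all genes were, and 1 higher and 1 lower in cytoplasm, where 2.29% and 1.95% were. SLC16A1, which encodes the lactate transporter MCT1, rose on polysomes, where the authors' deposited table gives 0.59 (SE 0.24, adjusted p = 0.0183), with 0.34 (adjusted p = 0.111) in cytoplasm. DLD, the dihydrolipoyl dehydrogenase subunit of the pyruvate dehydrogenase complex, rose on polysomes with 0.65 (adjusted p = 0.00298) from the authors' deposited table. GPT2, the mitochondrial alanine transaminase, rose there with 0.34 (adjusted p = 0.0228) from the authors' deposited table. PDP1, a phosphatase that activates the complex and is named after its value was seen, rose on polysomes with 0.53 (adjusted p = 0.0294) from the authors' deposited table. PDK2, a kinase that inhibits the complex, fell in both fractions, and the authors' deposited table gives -0.63 (SE 0.15, adjusted p = 0.000117) on polysomes and -0.56 (SE 0.19, adjusted p = 0.0109) in cytoplasm. MPC2, a subunit of the carrier that brings pyruvate into mitochondria, fell on polysomes with -0.42 (adjusted p = 0.00754) from the authors' deposited table. In cytoplasm the authors' deposited table gives DLD 0.10, GPT2 0.18, PDP1 0.28 and MPC2 -0.15, each without a call. Their polysomal minus cytoplasmic differences, unshrunken, were -0.08 (SE 0.60), 0.11 (SE 0.22), 0.06 (SE 0.38) and -0.20 (SE 0.25). None was thus measured as particular to polysomes. PCK2, mitochondrial phosphoenolpyruvate carboxykinase and a known ATF4 target, had the highest values of the list, and the authors' deposited table gives 1.53 (SE 0.16, adjusted p = 5.01e-19) on polysomes and 1.68 (SE 0.16, adjusted p = 6.89e-24) in cytoplasm. The basigin gene BSG was not called, with 0.26 (adjusted p = 0.172) on polysomes by the authors' deposited table.

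**Figure D3:**
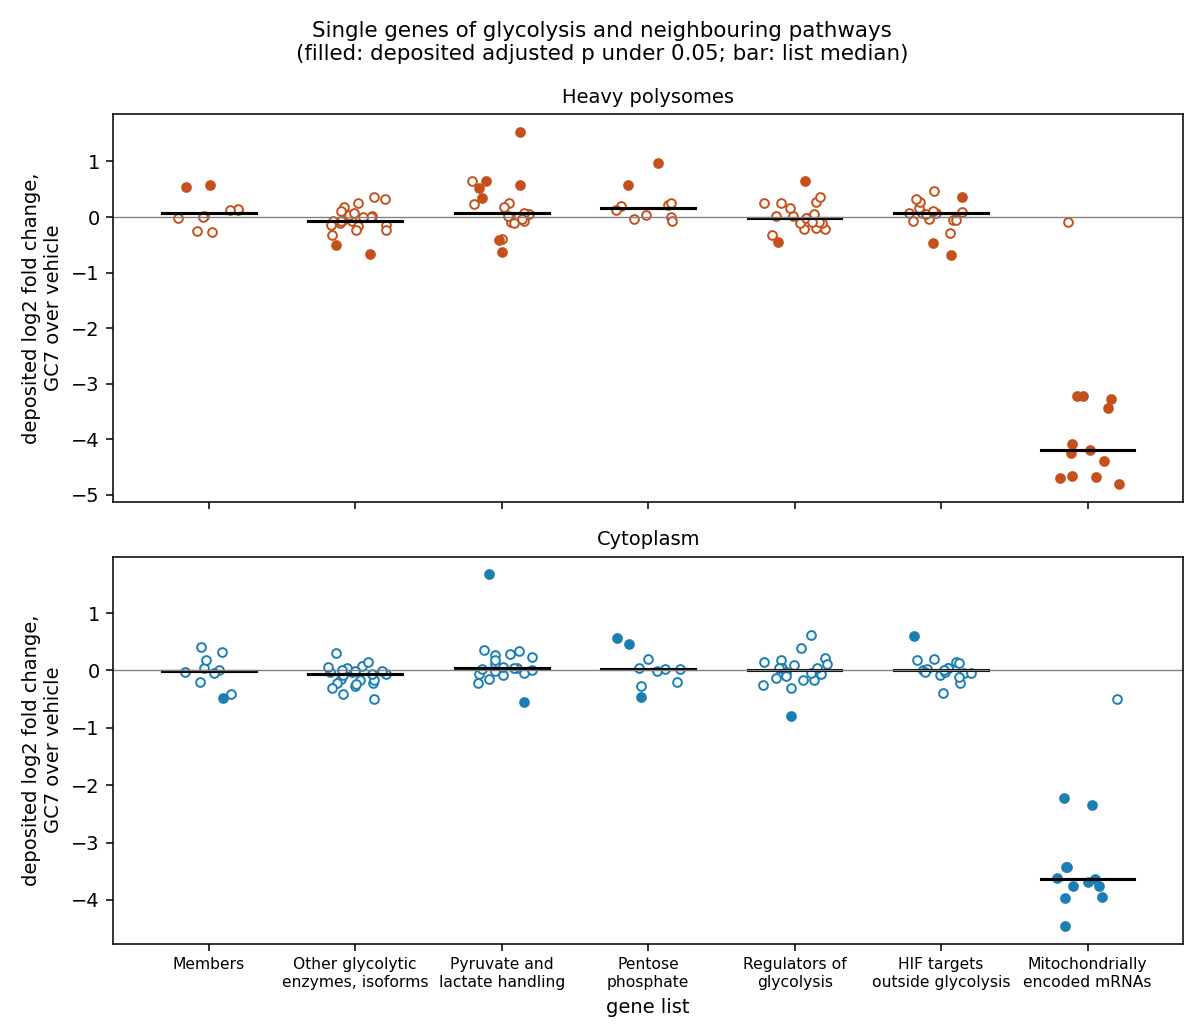
Deposited log2 fold change of GC7 over vehicle (y axis) for each measured gene of 7 lists (x axis), in heavy polysomes above and cytoplasm below, with filled points at a deposited adjusted p under 0.05 and a bar at the list median. The glycolysis lists lie about 0, with medians of 0.07 and -0.07 on polysomes, and the mitochondrially encoded mRNAs have medians of -4.20 on polysomes and -3.64 in cytoplasm.

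The pentose phosphate branch, which draws on glucose phosphate for NADPH and ribose, had 2 of 10 genes called higher and 0 lower on polysomes. In cytoplasm 2 were called higher and 1 lower. Of all genes, 5.61% were called higher and 5.48% lower on polysomes, and 2.29% and 1.95% in cytoplasm. No test of this small list against all genes was run. H6PD, the glucose phosphate dehydrogenase of the endoplasmic reticulum, rose in both fractions, and the authors' deposited table gives 0.58 (adjusted p = 0.0174) on polysomes and 0.45 (adjusted p = 0.0464) in cytoplasm. RBKS, ribokinase, did so too, and the authors' deposited table gives 0.97 (adjusted p = 3.13e-08) on polysomes and 0.56 (adjusted p = 0.0202) in cytoplasm. TKT, transketolase, fell in cytoplasm with -0.46 (adjusted p = 0.0476), and the authors' deposited table gives 0.03 (adjusted p = 0.918) for polysomes. The medians of the branch were 0.16 on polysomes and 0.03 in cytoplasm by the authors' deposited table.

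Among 20 regulators of glycolysis, 1 was called higher and 1 lower on polysomes, and 0 higher and 1 lower in cytoplasm. AKT1, a kinase of growth factor signalling that promotes glucose uptake, fell in both fractions, and the authors' deposited table gives -0.45 (SE 0.14, adjusted p = 0.00621) on polysomes and -0.80 (SE 0.25, adjusted p = 0.00541) in cytoplasm. For HIF1A, the hypoxia-inducible activator of many glycolytic genes, the authors' deposited table gives -0.02 (adjusted p = 0.930) on polysomes and 0.09 (adjusted p = 0.480) in cytoplasm. The cytoplasmic value of HIF1A was imprecise, at 1.10 (SE 0.71) unshrunken, with an interval from 0.813-fold to 5.62-fold. For MYC, another activator, the authors' deposited table gives 0.02 (adjusted p = 0.941) on polysomes and 0.62 (adjusted p = 0.113) in cytoplasm, so neither activator was called.

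Of 18 measured targets of HIF outside glycolysis, 1 was called higher and 2 lower on polysomes, and 1 higher and 0 lower in cytoplasm. Beside the shares of all genes called, 11.1% on polysomes and 4.24% in cytoplasm, these counts stand near the background, as do those of the regulators. VEGFA, the angiogenic growth factor, rose on polysomes, where the authors' deposited table gives 0.36 (adjusted p = 0.0396). BNIP3, a mitophagy receptor, and BHLHE40, a transcriptional repressor, fell there, and the authors' deposited table gives -0.47 (adjusted p = 0.00501) for BNIP3 and -0.69 (adjusted p = 0.00588) for BHLHE40. MXI1, an antagonist of MYC, rose in cytoplasm with 0.59 (adjusted p = 0.0110) from the authors' deposited table. In the other fraction each kept its sign without a call. The authors' deposited table gives VEGFA 0.18, BNIP3 -0.21 and BHLHE40 -0.40 in cytoplasm, and MXI1 0.33 on polysomes. Unshrunken, their polysomal minus cytoplasmic differences were -0.20 (SE 0.41), -0.23 (SE 0.22), -0.28 (SE 0.30) and -0.26 (SE 0.26). None was thus measured as particular to 1 fraction.

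SLC2A1 had the smallest polysomal adjusted p of the members and was compared with 11167 other genes of at least 100 mean normalized counts in both fractions. By Euclidean distance over the signed z values of the 3 comparisons, AGK at 0.098 and TUBB2B at 0.273 were among the 3 nearest. SLC16A1, looked up after its values were seen, ranked 12 at a distance of 0.544.

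Some values carry limits of counting. Exons on the opposite strand overlap those of 4 of the 10 members, SLC2A1, HK1, ENO1 and SLC16A3, and the sources used here do not say whether strand was used in counting. By the authors' deposited table ENO1-AS1, which lies opposite ENO1, had mean normalized counts of 23.7 on polysomes and 35.1 in cytoplasm. ENO1 itself had 61161 and 54905. The other opposite exons belong to CSNK1D at SLC16A3, RPS15AP28 at HK1 and a gene without a symbol at SLC2A1. Counts of these genes are not given here, and ENO1-AS1 does not stand for them. PGK1, ENO1, PKM, LDHA and HK2 have processed pseudogenes or close paralogs that may share reads, and the span of PGK1 shares exons with ATP7A on the same strand. Of the LDHA pseudogenes, LDHAP4 was the most counted, at 297 on polysomes and 89.6 in cytoplasm by the authors' deposited table. The whole-cell table holds a numbered copy of LDHA, for which the authors' deposited table gives -0.66 (unadjusted p = 0.513), close to the value of the row used. In bulk RNA, fewer cells expressing a gene and less RNA per cell cannot be told apart.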

How the data were processed

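RNA was measured in whole cells, cytoplasm and heavy polysomes of DU145 cells with GC7 or vehicle, grouped by the labels, with 3 libraries in each of 6 groups. STAR 2.7.8a and Salmon 1.4.0, with build GRCh38, are named without role or order, per the submitters' processing notes. Per the file headers, the authors deposited a log fold change and a p-value per gene for whole cells. Its base was read as log2, since the step from no reads to 1 read was 0.5283, which equals log2(1.5/0.5)/3. For the fractions the authors deposited a mean normalized count (a signal averaged over libraries), a log2 fold change, its SE, and p-values before and after adjustment. The authors' category, a further deposited column, joined an adjusted p under 0.05 to a log2 value beyond 1 in either direction, for each of 15747 genes. There were no columns of per-library values.

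The deposited fold changes of the fractions were read as shrunken by a Cauchy prior, whose scale was fitted by matching the deposited p-values (0.203 for polysomes and 0.197 for cytoplasm, natural log). Recovered z lay within 0.1 for 99.8% and 99.7% of genes, and 3 polysomal values off by over 0.5 were left out. The steps were tested on simulated data. For whole cells, Benjamini-Hochberg adjustment was applied to the p-values, and the SE there was implied by a normal test. Python 3.11.15 with scipy 1.17.1 was used. Transcript lengths and coordinates are of GENCODE 44.

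Members and lists were chosen with earlier results of these data known. Named genes were all members, then in each other list up to 6 genes called in a fraction by smallest adjusted p (or, with none, the gene of smallest adjusted p), and the 3 genes nearest to the member with the smallest polysomal adjusted p. BSG, HIF1A, MYC, PDP1 and SLC16A1 beside SLC2A1 were named outside this rule after their values were seen. A few genes that the rule names are not reported here.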

Additional observations from a re-analysis of the deposited data

How the results depend on the processing

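The calls of single members rest on thresholds. Under the authors' category, which also asks for a log2 fold change over 1 in size, 0 members were called on polysomes and 0 in cytoplasm, and the same counts, 0 and 0, were left by Bonferroni adjustment. Over all genes the counts were 214 and 313 on polysomes, against 1746 as reported, and 166 and 125 in cytoplasm, against 668. At an adjusted p under 0.1, 2 members were called in cytoplasm, HK2 beside LDHA. With Benjamini-Hochberg over all genes, or over genes with at least 100 mean normalized counts, the counts were again 2 on polysomes and 1 in cytoplasm. The whole-cell count was 0 in each of the adjustments tried. With an error correlation of 0.5 between fractions, 25 genes but 0 members differed in the polysomal minus cytoplasmic test, where the smallest unadjusted p of a member was 0.0116, for PKM. With shrunken values 1 gene and 0 members were called. The members' median ranged from 0.01 to 0.15 on polysomes, from -0.03 to 0.01 in cytoplasm and from 0.01 to 0.10 in whole cells over the alternatives, leaving out each member included. No paired analysis was possible because the tables hold no per-library values, and for the same reason no replicate could be left out and no count test was run. Depth per library is unknown, and low precision limits whole cells most.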
